A study of Mus musculus with 24 samples.

Results

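Memantine was given to 12 of the 24 mouse frontal cortex libraries compared here, and the question was what those 12 share against the 12 without memantine, whatever the sarcosine level. The 12 were the 6 libraries of the memantine group and the 6 of the combination group, which received memantine and sarcosine. The other 12 were the 6 vehicle and the 6 sarcosine libraries. All came from male wild-type C57BL/6 mice, 4 weeks old per the labels, injected intraperitoneally once daily for 28 days with memantine at 20 mg/kg, memantine at 20 mg/kg plus sarcosine at 100 mg/kg, vehicle, or sarcosine at 100 mg/kg. RNA came from frozen brain punches. The mice were kept on a reversed light cycle, and the labels used here give no time of tissue collection. The labels describe the animals no further than numbered sample titles, so p-values measure the spread between these samples. Library numbers run by group, so any effect of processing order, if it followed those numbers, and an effect of treatment cannot be told apart.

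Memantine is an open-channel blocker of the NMDA receptor, a glutamate-gated cation channel built from the obligatory subunit GluN1 and GluN2 or GluN3 subunits. The channel opens when glutamate and a co-agonist, glycine or D-serine, are both bound. Sarcosine, N-methylglycine, blocks the glycine transporter GlyT1 and acts at the co-agonist site. At higher concentrations memantine also blocks nicotinic and serotonin receptor channels.

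Each value was a normalised count, a read count that the authors had scaled by 1 factor per library. Reads per library numbered 12678114 to 19714592 over the 12 libraries with memantine and 15543738 to 21844579 over the 12 without. Slc17a7, which loads glutamate into the vesicles of cortical excitatory neurons, had 15371 to 36004 normalised counts with memantine and 3901 to 44936 without, and Tbr1, a transcription factor of cortical neurons, had 1581 to 3281 with memantine and 784 to 3975 without, so cortical markers were present in every library. Markers of neighbouring regions varied within every group. The summed normalised counts of 10 striatal markers were 7751 to 17619 in memantine, 7582 to 22517 in combination, 7419.5 to 13985 in vehicle and 7586 to 44844 in sarcosine libraries. Those of the choroid plexus markers, 7 of which passed the filter, reached 56262 in memantine replicate 3, 34948 in combination replicate 1 and 40945 in sarcosine replicate 1, and at most 787 in vehicle. Sarcosine replicate 1 also had the lowest Slc17a7. Without it, the main effect again had 0 genes with an adjusted p under 0.05.

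No gene passed for the memantine main effect. Of 16578 genes tested with limma on log2(normalised count + 1), with sarcosine as a covariate, 0 had a Benjamini-Hochberg adjusted p under 0.05, and the smallest adjusted p was 0.144. At an unadjusted p under 0.05 there were 882 genes, 5.32% of those tested, where 829 are 5% of them. Of these, 432 (2.61%) had higher and 450 (2.71%) lower values with memantine. edgeR's quasi-likelihood test on the recovered reads also called 0 genes, with 892 at an unadjusted p under 0.05, and DESeq2 called 12 (0.0724%), 10 higher and 2 lower. No gene separated the 12 libraries with memantine from the 12 without. The median standard error of a fold change was 0.10, and the median fold change over all genes was -0.0052 (log2).

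The main effect averages 2 contrasts that share no library. Memantine against vehicle had 2441 genes at an unadjusted p under 0.05 (14.7% of those tested), and 2 genes (0.0121%) passed the adjusted test. Combination against sarcosine had 1443 (8.7%), and 0 passed. The fold changes of the contrasts correlated at r = -0.078 across the 16578 genes, which are not independent replicates, and 38.7% of genes had the same sign in both. The difference between the contrasts, tested as an interaction, passed for 301 genes (1.82%), of which 96 had a higher and 205 a lower value of the memantine effect in the presence of sarcosine. With the trend of signal with transcript length and GC content removed, 0 genes passed the interaction (smallest adjusted p 0.104 by limma) and 1423 had an unadjusted p under 0.05.

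**Figure D1:**
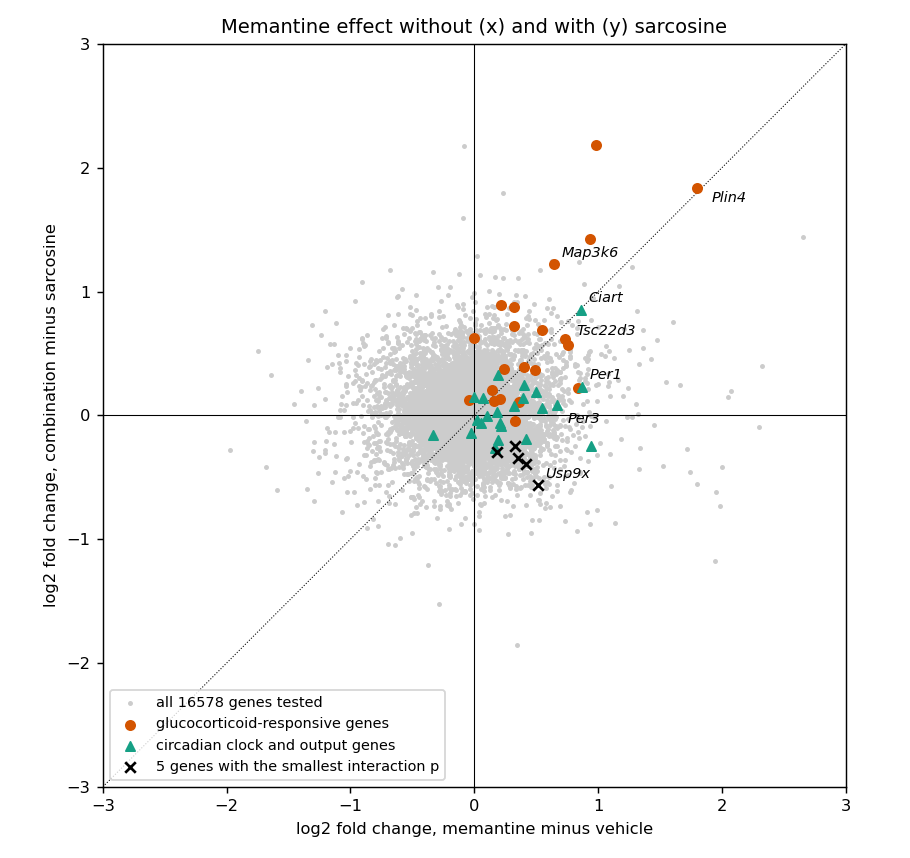
Each grey point is 1 of 16578 genes, plotted by its log2 fold change without sarcosine (memantine against vehicle, x axis) and with it (combination against sarcosine, y axis), with the line of equal values dotted. Glucocorticoid-responsive genes (orange) lay at a median of 0.36 on the x and 0.57 on the y axis, and the 5 genes with the smallest interaction p (crosses) were positive on x and negative on y.

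The NMDA receptor genes encode the targets of the drug. Of the 7 subunit genes, 6 passed the filter on low values, and 0 of 6 had an unadjusted p under 0.05 in either direction, against 2.61% and 2.71% of all genes. With the length and GC trend removed, with region marker scores as covariates, or without memantine replicate 1 or vehicle replicate 1, 1 of 6 did, lower. Grin1, which encodes the obligatory subunit GluN1, had a lowest, median and highest value of 4604, 5742 and 6071 normalised counts with memantine and 4348, 5582 and 6945 without. Its log2 fold change was 0.015 with a 95% interval of -0.15 to 0.18 (limma, n = 12 each). The groups overlapped almost completely, and the spread was wider without memantine.

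Among the GluN2 genes, which set channel kinetics and pharmacology, Grin2b had 5476, 8035 and 9767 normalised counts with memantine (lowest, median, highest) and 5804, 7682 and 11422 without (fold change -0.085, interval -0.32 to 0.15). Its effect was 0.15 without and -0.32 with sarcosine, and the difference did not pass (-0.47, limma adjusted p = 0.244). Grin2a, whose subunit increases in cortex during maturation, differed by 0.033 with an interval of -0.39 to 0.45. Grin2c differed by -0.091 (interval -0.29 to 0.11) and Grin2d by 0.0049 (interval -0.24 to 0.25). Grin3a, which encodes a glycine-binding GluN3 subunit, had the value farthest from 0, with 645, 838 and 988 normalised counts with memantine and 599, 917 and 1209 without (fold change -0.17, interval -0.37 to 0.022). The intervals bound the 6 genes to different degrees. That of Grin1 lies within 0.18 of 0 on the log2 scale, whereas that of Grin2a reaches 0.45.

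Few other receptor genes reached an unadjusted p of 0.05. Among the memantine-sensitive nicotinic, serotonin, sigma and dopamine receptor genes 0 of 6 had an unadjusted p under 0.05, among AMPA and kainate receptor subunits 0 of 9 and among metabotropic glutamate receptors 0 of 7. Of the GABA-A receptor subunits 1 of 13 did, lower with memantine (2.71% of all genes were). Among 27 genes of the postsynaptic density and calcium-dependent kinases the count was 0, with a median fold change of 0.027. Of 16 measured genes of glycine, serine and sarcosine metabolism 1 had an unadjusted p under 0.05, lower with memantine (2.71% of all genes were). The median was -0.00052.

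Ciart, a circadian repressor that acts on the CLOCK:BMAL1 activator, had the smallest p of genes with higher values. Its lowest, median and highest values were 186, 227 and 309 normalised counts in memantine and 129, 199.5 and 429.5 in combination libraries, against 110.4, 119 and 160.0 in vehicle and 102, 129 and 148 in sarcosine libraries. All 6 memantine libraries lay above all 6 vehicle libraries, while combination overlapped sarcosine at its 2 lowest values. How many of all genes separate 6 libraries from 6 in this way is not given here. Such separations, here and below, are therefore described and not set against a share of all genes. The fold change was 0.86 (SE 0.16, limma adjusted p = 0.144), 0.86 without and 0.85 with sarcosine, and 12 of 12 memantine-given libraries lay above the mean of the 12 without memantine. DESeq2 gave 0.94 (adjusted p = 0.000554).

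Mfsd2a, the transporter that carries lysophosphatidylcholine with docosahexaenoic acid across the blood-brain barrier endothelium, had 425, 525 and 617 normalised counts in memantine and 296, 571 and 809.9 in combination libraries, against 303, 337 and 399.8 in vehicle and 291, 360.2 and 426 in sarcosine libraries. Memantine and vehicle did not overlap, and in the combination group replicate 1 alone lay in the range of the sarcosine libraries. The fold change was 0.58 (SE 0.11, limma adjusted p = 0.144), with 11 of 12 above the mean without memantine. Without combination replicate 1 it was 0.66, and Mfsd2a was then the 1 gene to pass (limma adjusted p = 0.00173).

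The other genes with the smallest p and higher values were smaller in size. Ythdc1, a nuclear reader of N6-methyladenosine in RNA, had 1382, 1537 and 1696 normalised counts with memantine and 1039.7, 1313 and 1449 without (0.24, SE 0.050, limma adjusted p = 0.190). Pnn, a nuclear protein linked to splicing and cell adhesion, differed by 0.21 (SE 0.044, limma adjusted p = 0.190). Alpk1, an atypical kinase that senses bacterial ADP-heptose, had 49.1, 63.9 and 80.5 normalised counts with memantine and 32.3, 43.4 and 62.7 without, a fold change of 0.52 (SE 0.11). For Ythdc1, Pnn and Alpk1 12 of 12 memantine-given libraries lay above the mean of those without memantine, although the ranges overlapped.

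Lower values were led by B3galt6, a galactosyltransferase that builds the linker of proteoglycan chains. It had 204, 216 and 263 normalised counts in memantine and 215, 232 and 303 in combination libraries, against 257, 295 and 318 in vehicle and 264, 296 and 308 in sarcosine libraries. The ranges overlapped at their edges, and 11 of 12 lay below the mean without it. The fold change was -0.32 (SE 0.061, limma adjusted p = 0.144). Leaving out combination replicate 3 made it the 1 gene to pass (limma adjusted p = 0.0159).

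Skap2, an adaptor protein of Src family kinase signalling, had 154, 184 and 225 normalised counts with memantine and 196, 228 and 283 without (-0.29, SE 0.059, limma adjusted p = 0.174). Unc5d, a netrin receptor family member of cortical neurons, had 396, 505 and 657 with memantine and 471, 629 and 853 without (-0.34, SE 0.085). Both lay below the mean without memantine in 12 of 12 memantine-given libraries, and the ranges overlapped. Fam136a, a mitochondrial protein, differed by -0.29 (limma adjusted p = 0.494, 12 of 12), and Fgfrl1, a receptor of the fibroblast growth factor family without a kinase domain, by -0.40 (limma adjusted p = 0.503, 11 of 12).

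**Figure D2:**
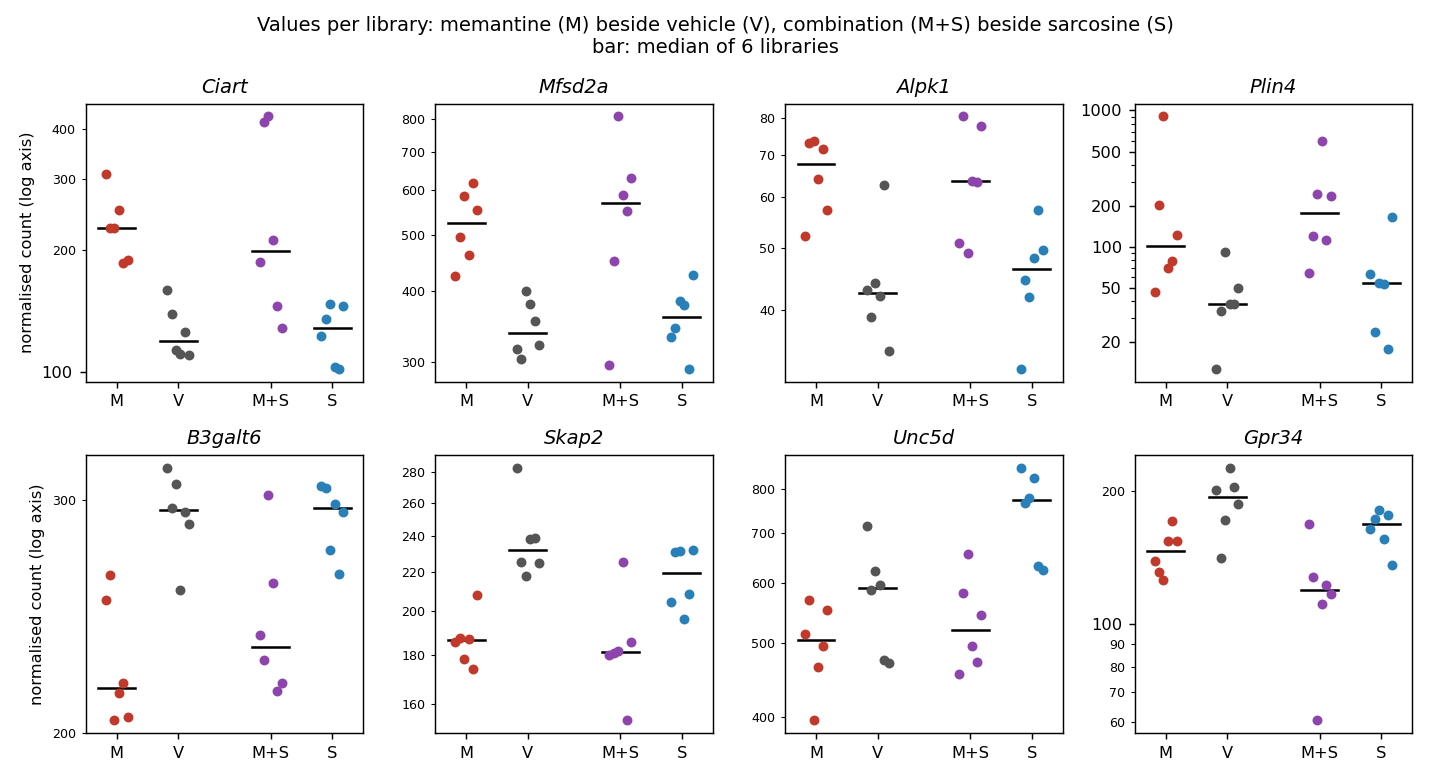
Normalised counts per library on log axes for 8 genes, with memantine (M) left of vehicle (V) and combination (M+S) left of sarcosine (S), and a bar at the median of 6 libraries. For Ciart and Mfsd2a the 6 memantine libraries lie above the 6 vehicle libraries, while single combination libraries reach into the sarcosine range.

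The clock genes formed the group around Ciart. In the mammalian clock the CLOCK:BMAL1 pair binds E-boxes and drives the Per, Cry, Nr1d and Ciart repressors and the output factors Dbp, Tef and Hlf, and the REV-ERB proteins encoded by Nr1d1 and Nr1d2 repress Bmal1 in turn. Of 23 clock and output genes, 8 had an unadjusted p under 0.05 with higher values (2.61% of all genes did) and 1 with lower values (2.71%), and 0 passed the adjusted test. The median fold change was 0.10, 0.21 without and 0.026 with sarcosine, and 17 of 23 were above 0, against 47.7% of all genes. Ciart, already named for its small p, is 1 of the 8. The lists were chosen with earlier results of these data known, so these counts describe the clock list and do not test it.

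Nr1d2, which encodes REV-ERB beta, had 1537, 1725 and 1783 normalised counts in memantine and 1302, 1442 and 1768 in combination libraries, against 988, 1176 and 1275 in vehicle and 1224, 1429 and 1541 in sarcosine libraries. Memantine stood clear of vehicle, and combination overlapped sarcosine. Nr1d2 rose by 0.54 in memantine against vehicle (SE 0.071, limma adjusted p = 0.00144) and differed by 0.064 in combination against sarcosine (limma adjusted p = 0.898). The difference between these effects was -0.48 (limma adjusted p = 0.0275), so its main effect of 0.30 averages unequal effects.

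Per3, a period gene, had 638, 687 and 747 normalised counts in memantine and 522, 594 and 758 in combination libraries, against 331, 418 and 596 in vehicle and 498, 566 and 641 in sarcosine libraries. It rose by 0.67 in memantine against vehicle (limma adjusted p = 0.0155), without overlap, and differed by 0.085 in combination against sarcosine, where the ranges overlapped (interaction -0.58, limma adjusted p = 0.0473). With the length and GC trend removed, Nr1d2 kept its call against vehicle (0.49, limma adjusted p = 0.00674), Per3 lost it (0.57, limma adjusted p = 0.0784), and neither interaction passed (limma adjusted p = 0.191 for Nr1d2 and 0.343 for Per3). Per1, a period gene that light and glucocorticoids also induce, had 1185, 2581 and 3640.3 normalised counts with memantine and 1105, 1517 and 2769 without (main effect 0.55, SE 0.16, limma adjusted p = 0.564). For Per1 the lowest library with memantine, combination replicate 1, lay at the bottom of the range without it.

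The remaining clock genes with an unadjusted p under 0.05 were Nr1d1 (0.32), the ubiquitin protease Usp2 (0.26), and the output factors Dbp (0.34) and Tef (0.20) with higher values. Bmal1, the activator, had 363, 498 and 634 normalised counts with memantine and 388, 633 and 697 without, a fold change of -0.25 (limma adjusted p = 0.886). Its partner Clock differed by -0.0065, and Per2 by 0.35 without reaching an unadjusted p of 0.05. Leaving out 1 library at a time gave 8 to 11 higher members.

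The promoters of 3 of these clock genes are shown because their letters hold the elements that the clock factors read. They are the windows from 250 bases before to 50 after the annotated start, matched by symbol in RefSeq sequences of GRCm38.p6, which differs from the mm39 build of the counts. Capitals mark the E-box CACGTG, which CLOCK:BMAL1 binds, and the D-box TTATGTAA, which Dbp, Tef and Hlf bind. Both were searched on both strands, the E-box reads the same on either, and no matches overlapped. The Ciart window (chr3:95882179-95882478, minus strand) held 3 E-boxes, the Per3 window (chr4:151044616-151044915, minus strand) 2 D-boxes and the first of 2 annotated Per1 windows (chr11:69098699-69098998, plus strand) 1 E-box. The other Per1 window held neither.
Ciart: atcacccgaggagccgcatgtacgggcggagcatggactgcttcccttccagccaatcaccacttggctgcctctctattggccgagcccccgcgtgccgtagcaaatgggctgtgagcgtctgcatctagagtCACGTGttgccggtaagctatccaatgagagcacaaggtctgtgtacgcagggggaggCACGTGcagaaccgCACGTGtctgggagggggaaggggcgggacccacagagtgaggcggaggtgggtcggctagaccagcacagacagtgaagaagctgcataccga
Per3: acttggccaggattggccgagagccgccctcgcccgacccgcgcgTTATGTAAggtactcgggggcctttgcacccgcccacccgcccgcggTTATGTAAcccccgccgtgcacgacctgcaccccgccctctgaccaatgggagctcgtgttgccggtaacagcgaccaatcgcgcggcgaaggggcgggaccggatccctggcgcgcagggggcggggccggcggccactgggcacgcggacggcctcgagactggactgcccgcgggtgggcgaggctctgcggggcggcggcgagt
Per1: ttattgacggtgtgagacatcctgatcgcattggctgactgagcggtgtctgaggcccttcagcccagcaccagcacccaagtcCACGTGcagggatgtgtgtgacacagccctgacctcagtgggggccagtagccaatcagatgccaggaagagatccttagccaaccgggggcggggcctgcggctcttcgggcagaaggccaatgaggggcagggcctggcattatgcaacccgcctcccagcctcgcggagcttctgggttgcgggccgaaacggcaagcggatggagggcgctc
Of 32851 promoter windows of this length, 7.15% held an E-box and 0.938% a D-box. The windows of Nr1d2, Mfsd2a, Tsc22d3 and Plin4 also held neither. A match is a description of these letters and not a site in use. Among the clock genes only Ciart, Per3, Nr1d2 and Per1 were looked up, and the 3 shown were picked for their matches. The matches are therefore no measure of how often clock genes hold these elements.

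Genes that respond to glucocorticoids, the adrenal stress hormones, had the highest median among the lists of functional pathways. Glucocorticoids bind a nuclear receptor that raises transcription of metabolic and anti-inflammatory genes in neurons, glia and vessels. Of 21 members, 10 had an unadjusted p under 0.05 with higher values (2.61% of all genes did), 0 with lower values, and 0 passed the adjusted test. All 21 had fold changes above 0, from 0.042 to 1.82, with a median of 0.52, against a median of -0.0052 over all genes. The median was 0.36 in memantine against vehicle, with 19 of 21 above 0, and 0.57 in combination against sarcosine, with 20 of 21. No member passed the interaction test. The list was put in the text after its values were seen, so these counts describe it and do not test it.

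Plin4, a lipid droplet coat protein, had 46.5, 101 and 906 normalised counts in memantine and 63.9, 178 and 595 in combination libraries, against 12.8, 38.2 and 91.1 in vehicle and 17.8, 54.2 and 166 in sarcosine libraries. Each pair of groups overlapped, with single high libraries in 3 of the 4 groups. The fold change was 1.82 (SE 0.44, limma adjusted p = 0.494), and 1.56 without memantine replicate 3. Tsc22d3, which encodes the glucocorticoid-induced leucine zipper protein GILZ, had 964, 1812 and 3135 normalised counts with memantine and 686, 1064 and 1859.8 without (0.68, SE 0.18, limma adjusted p = 0.510). For both genes 11 of 12 libraries with memantine lay above the mean without it.

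Map3k6, a stress-activated kinase, had 53.1, 109 and 368 normalised counts with memantine and 37.5, 59.8 and 197 without (0.93, SE 0.27, limma adjusted p = 0.564). Acer2, an alkaline ceramidase of the Golgi, differed by 0.52 (SE 0.14, limma adjusted p = 0.505). Its combination libraries, at 179 to 371, were all above the memantine libraries, at 104 to 135, and 6 of 12 memantine-given libraries exceeded the mean of those without memantine. The co-chaperone Fkbp5, which limits glucocorticoid receptor signalling, had 568, 871 and 2679.9 normalised counts with memantine and 498, 616 and 1390.0 without (0.62, SE 0.19, limma adjusted p = 0.571).

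The other members with an unadjusted p under 0.05 were the hypoxia-inducible factor subunit Hif3a (1.18), the siderophore-binding lipocalin Lcn2 (1.58), the transcription factor Zbtb16 (0.67), the sulfotransferase Sult1a1 (0.60) and the metallothionein Mt2 (0.56). Mt1, close in sequence to Mt2, differed by 0.31, and the split of reads between such copies is uncertain. Sgk1 (0.53), a kinase induced by glucocorticoids, and the cell cycle inhibitor Cdkn1a (0.43) did not reach an unadjusted p of 0.05.

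Which libraries were high was shared by many members. The list score, the mean over members of log2(value + 1) minus the 24-library mean, ran from -0.24 in memantine replicate 1 to 0.89 in memantine replicate 3. It ran from -0.55 in combination replicate 1 to 1.31 in combination replicate 3, from -0.63 to -0.020 with vehicle, and from -0.55 to 0.65, in replicate 6, with sarcosine. The scores overlapped within both pairs of groups, and combination replicate 1 lay with the low vehicle libraries. Memantine replicate 3 also had the highest choroid plexus sum, and combination replicate 1 the next highest among libraries with memantine. With scores of striatal, olfactory bulb and choroid plexus markers as covariates, 15 members had an unadjusted p under 0.05 with higher values. The share of all genes at that threshold in this fit is not given here, so the 15 are only described. In this fit the median was 0.61, and 1 member passed the adjusted test (0.0543% of all genes did). The part of such differences in the result was not tested beyond that fit. Leaving out 1 library at a time left 10 to 14 members with an unadjusted p under 0.05, 14 without combination replicate 1.

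**Figure D3:**
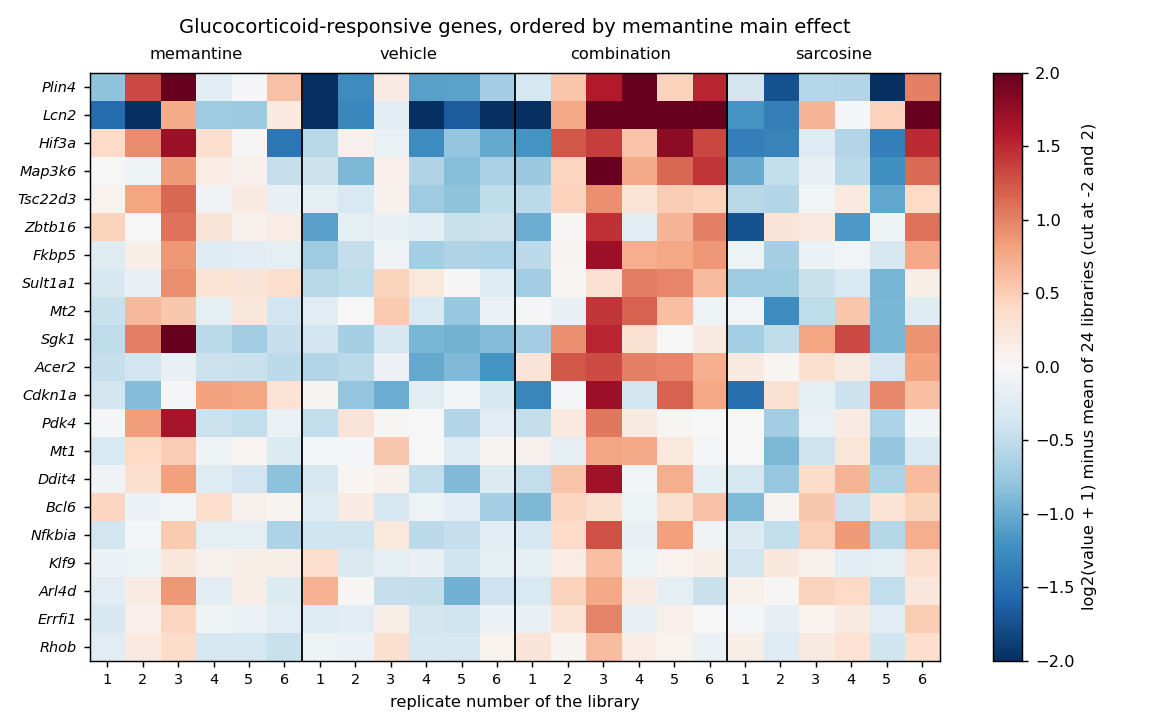
Heat map of 21 glucocorticoid-responsive genes (rows, by memantine main effect) in 24 libraries (columns), coloured by log2(value + 1) minus the mean of the 24 libraries. Memantine replicate 3, combination replicate 3 and sarcosine replicate 6 are red over many rows and combination replicate 1 is blue over many rows.

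Stress chaperones and immediate early genes had fewer such members. Among 32 genes of the heat shock and unfolded protein responses, 5 had an unadjusted p under 0.05 with higher values (2.61% of all genes did) and 0 with lower values (2.71%), with a median of 0.059 (0.23 without and -0.044 with sarcosine). Herpud1, a component of endoplasmic reticulum protein degradation, had 859, 1036 and 1287 normalised counts with memantine and 755, 878 and 1015 without (0.22, SE 0.064, limma adjusted p = 0.564). The heat shock chaperones Hspa1a (0.41) and Hspb1 (0.52) and the endoplasmic reticulum proteins Manf (0.22) and Hspa5 (0.25) were the others. Hspa1a shares reads with its copy Hspa1b, so its count is uncertain. The count of 5 was 3 without memantine replicate 3, 5 or 6 or combination replicate 6.

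Immediate early genes are transcribed within minutes of neuronal activity, and 3 of 32 had an unadjusted p under 0.05 with higher values (2.61% of all genes did). The median was 0.13 (0.44 without and -0.13 with sarcosine), and 0.025 to 0.23 on leaving out 1 library at a time. Maff, a small Maf transcription factor, had 21.8, 39.2 and 166 normalised counts with memantine and 15.4, 23.7 and 42.1 without (0.86, SE 0.24, limma adjusted p = 0.564). Klf4 had 229, 257 and 305 in memantine and 83.4, 175 and 451 in combination libraries, against 118, 138 and 199.9 in vehicle and 119, 138 and 202 in sarcosine libraries (0.54, limma adjusted p = 0.751). Memantine did not overlap vehicle for Klf4, and combination covered the sarcosine range. Atf3 differed by 0.60, and Vgf, a neuropeptide precursor, by -0.17. Without combination replicate 1 the count of 3 was 5.

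**Figure D4:**
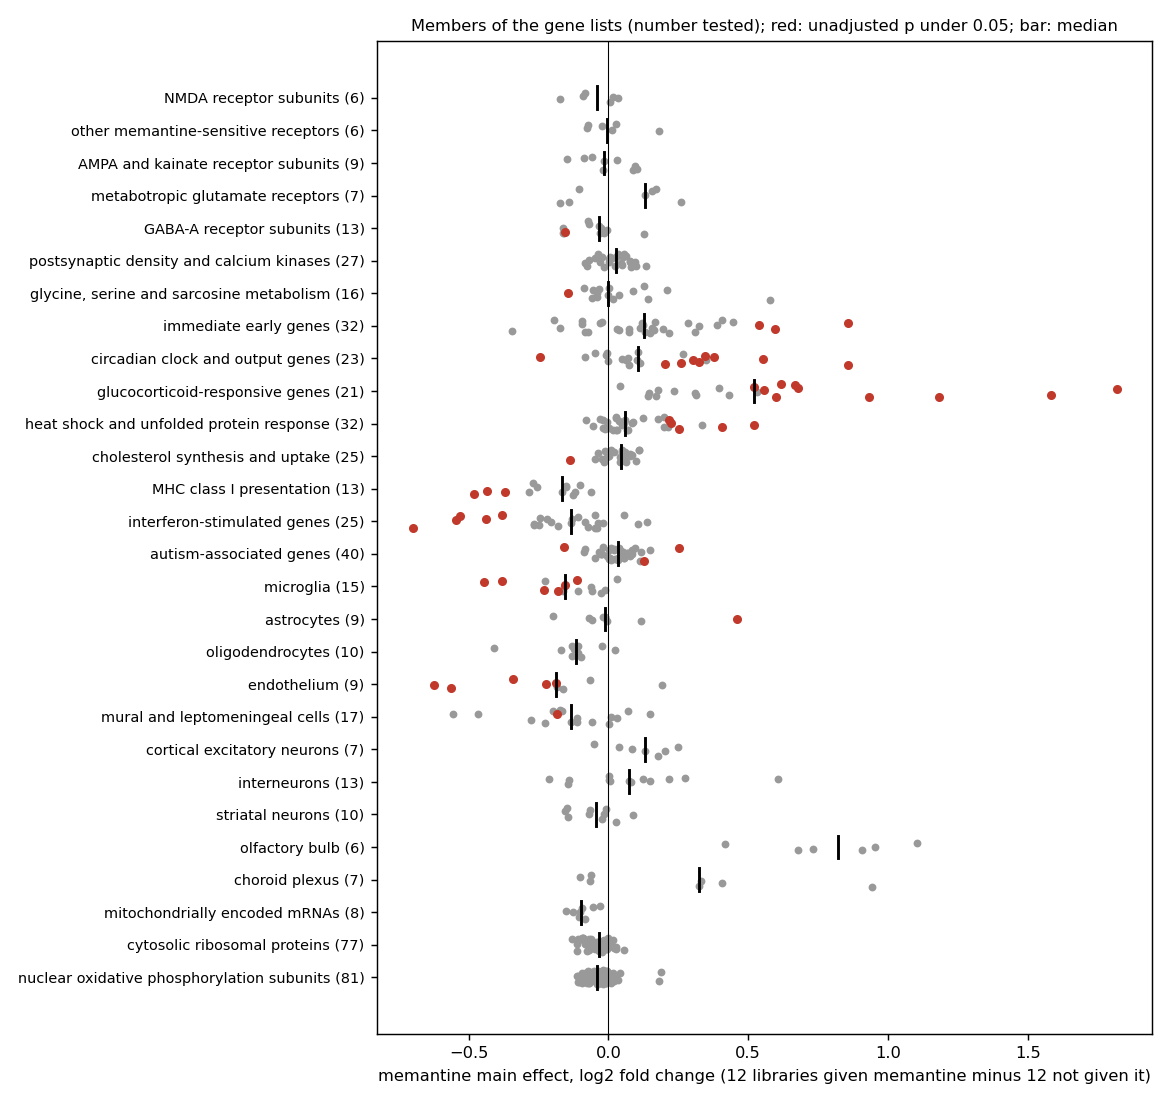
Memantine main effect (x axis, log2 fold change) of the tested members of 28 gene lists (rows, number of members tested in brackets), with red points at an unadjusted p under 0.05 and a bar at each median. The 21 glucocorticoid-responsive genes all lie above 0, and 14 of 15 microglial genes lie below 0.

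Some microglial and endothelial markers had lower values with memantine at an unadjusted p under 0.05. In bulk tissue, fewer cells of a type and less RNA per cell cannot be told apart. Of 15 microglial markers, 6 had an unadjusted p under 0.05 with lower values (2.71% of all genes did), 0 with higher values, and 0 passed the adjusted test. The median was -0.15, at -0.31 without and -0.0014 with sarcosine, with 1 and 7 of 15 above 0, and 4 of the 15 passed the interaction test (1.82% of all genes did). The summed normalised counts of the list were 8760.4 to 10652 in memantine, 9379 to 10561 in combination, 9708 to 12669 in vehicle and 8888 to 10104 in sarcosine libraries. These sums overlapped in both pairs of groups. As for the clock list, the counts of microglial members describe the list and do not test it.

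Gpr34, a lysophosphatidylserine receptor of microglia, had 125 to 171 normalised counts in memantine and 60.5 to 168 in combination libraries, against 141 to 226 in vehicle and 136 to 181 in sarcosine libraries. The fold change was -0.45 (SE 0.11, limma adjusted p = 0.503), with 12 of 12 memantine-given libraries below the mean without memantine. The fractalkine receptor Cx3cr1 had 417, 793 and 1181 with memantine and 808, 1039 and 1375 without (-0.38, SE 0.11, limma adjusted p = 0.564). The purinergic receptor P2ry12 differed by -0.23. Gpr34, Cx3cr1 and P2ry12 had effects of the same sign at both sarcosine levels, whereas Siglech and Itgam were at -0.31 and -0.43 without sarcosine and at -0.0014 and 0.074 with it. The complement genes C1qa and C1qb and Tmem119 had main effects of -0.11, -0.028 and -0.012. Leaving out memantine replicate 3 gave 4 lower members, and leaving out combination replicate 1 gave 9.

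Of 9 endothelial markers, 5 had an unadjusted p under 0.05 with lower values (2.71% of all genes did) and 0 with higher values (2.61%), and 0 passed the adjusted test, with a median of -0.19, which was -0.16 without and -0.23 with sarcosine. This list was also put in the text after its values were seen. Cldn5, the tight junction claudin of brain endothelium, had 246, 589.6 and 1022 normalised counts with memantine and 299.5, 1043 and 1635 without (-0.63, SE 0.22, limma adjusted p = 0.725). The receptor of vascular endothelial growth factor Kdr had 94.8, 164 and 304 with memantine and 148, 277 and 406 without (-0.57, SE 0.18, limma adjusted p = 0.649). The angiopoietin receptor Tek differed by -0.34, Tie1 by -0.22 and the adhesion molecule Pecam1 by -0.19. The ranges overlapped for all 5. Ly6c1, also endothelial, differed by 0.19, and Mfsd2a, expressed by the same cells, had higher values with memantine as given above. Summed endothelial counts were 3126 to 4755 in memantine, 3313 to 4047 in combination, 3351 to 5199.0 in vehicle and 3316 to 5238 in sarcosine libraries.

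Of 25 interferon-stimulated genes 5 had an unadjusted p under 0.05, all lower (2.71% of all genes were), and 0 passed the adjusted test. Their median was -0.14, at -0.20 without sarcosine, with 2 of 25 above 0, and -0.082 with it, with 12 of 25 above 0. The interferon list, too, was put in the text after its values were seen. Gbp4, an interferon-induced GTPase, had 27.2, 33.0 and 44.9 normalised counts in memantine and 54.8, 109 and 152 in combination libraries, against 38.4, 56.5 and 96.4 in vehicle and 119.8, 143 and 293 in sarcosine libraries. Its effect was -0.69 without and -0.71 with sarcosine (main effect -0.70, SE 0.18, limma adjusted p = 0.503), and the ranges overlapped in both pairs of groups. The antiviral enzyme Rsad2 differed by -0.53, and the GTPases Iigp1, Gbp2 and Gbp3 by -0.54, -0.44 and -0.38. Iigp1 was at -0.86 without and -0.23 with sarcosine (interaction limma adjusted p = 0.507). Reads of these GTPases may be split among close copies, so single values are uncertain. Of 13 MHC class I genes, 3 had an unadjusted p under 0.05, all lower (2.71% of all genes were), and 0 passed. The median was -0.17, at -0.44 without and 0.0015 with sarcosine, with 0 and 7 of 13 above 0. Leaving out vehicle replicate 3 gave 3 lower interferon-stimulated genes and leaving out vehicle replicate 1 gave 7, and the MHC count was 2 without memantine replicate 4 and 6 without combination replicate 1.

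Of markers of other cells and regions, Gjb6, an astrocyte connexin, had an unadjusted p under 0.05 (0.46, limma adjusted p = 0.503), and the remaining 8 astrocyte markers did not. No marker of oligodendrocytes (10), cortical excitatory neurons (7), interneurons (13), striatal neurons (10), olfactory bulb (6) or choroid plexus (7) had one. Of 17 mural and leptomeningeal markers 1 did, lower (2.71% of all genes were). The olfactory bulb markers had a median of 0.82, the highest of all 28 lists, with scores from -1.73 to 3.18 with memantine and from -2.09 to 3.04 without. The spread of that score within each group was thus several log2 units. With scores of the region marker lists as covariates, 9 genes (0.0543%) passed the main effect, 4 higher and 5 lower. The higher ones were Ciart (0.98, limma adjusted p = 0.00684), Mfsd2a (0.62, limma adjusted p = 0.0394), Plin4 (1.99, limma adjusted p = 0.0430) and Nlrp6 (1.03, limma adjusted p = 0.0175). The lower ones were Aqp4, the water channel of astrocytes (-0.32, limma adjusted p = 0.00684), Fgfrl1 (-0.49, limma adjusted p = 0.00973), Gbp4 (-0.81, limma adjusted p = 0.0421), the phosphatase Alpl (-0.40, limma adjusted p = 0.0453) and Btbd17 (-0.39, limma adjusted p = 0.0394). Without these covariates Aqp4 differed by -0.20 (limma adjusted p = 0.965).

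The 5 genes with the smallest interaction p were Fam120c, Bptf, Trip11, Usp9x and Wdfy3 (limma adjusted p = 0.0261 each). Usp9x, an X-linked deubiquitinase, had 1959.7, 2118 and 2498 normalised counts in memantine and 1419, 2075 and 2432 in combination libraries, against 1229.8, 1518 and 1988 in vehicle and 1965, 3006 and 3317 in sarcosine libraries. Its effect was 0.52 without and -0.56 with sarcosine, and the main effect -0.024. Memantine and combination overlapped in range, and the medians of the vehicle and sarcosine groups lay on either side of theirs.

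Bptf, a chromatin remodelling subunit, had effects of 0.19 without and -0.29 with sarcosine, and Wdfy3, a scaffold of selective autophagy, 0.35 and -0.35. Trip11, a Golgi protein, had effects of 0.33 and -0.25, and Fam120c 0.42 and -0.39. The direction of all 5 was positive without and negative with sarcosine. The autism-associated genes had the same order of medians, with a median of 0.18 without and -0.11 with sarcosine, 36 of 40 above 0 without and 2 of 40 with it, and 6 of 40 passing the interaction, against 1.82% of all genes. Their main effect had a median of 0.035, with 2 members higher and 1 lower at an unadjusted p under 0.05, against 2.61% and 2.71% of all genes.

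The ribosomal and respiratory chain mRNAs, which are short, ran the other way. Of 77 cytosolic ribosomal protein genes, 0 had an unadjusted p under 0.05 for the main effect (median -0.033). Their median was -0.23 without and 0.15 with sarcosine, with 1 of 77 above 0 without and 76 of 77 with it, and 13 passed the interaction, against 1.82% of all genes. Of 8 mitochondrially encoded mRNAs 0 had an unadjusted p under 0.05 (median -0.098). Of 25 genes of cholesterol synthesis and uptake 1 did, lower (2.71% of all genes were), with a list median of 0.045. The 81 nuclear oxidative phosphorylation genes had 0 members with an unadjusted p under 0.05, a median of -0.040, and medians of -0.18 without and 0.096 with sarcosine.

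The trend of signal with transcript length also differed between the groups, and its part in these list medians at each sarcosine level was not tested. The length slope, the change of a library's log2 deviation per 10-fold longer transcript, was 0.064 ± 0.070 in memantine and -0.018 ± 0.18 in combination, against -0.23 ± 0.096 in vehicle and 0.18 ± 0.15 in sarcosine libraries (SD, n = 6 each). Memantine thus lay 0.29 above vehicle and combination 0.20 below sarcosine. The fold change correlated with log10 length across 16287 genes at r = 0.32 without sarcosine, -0.26 with it, and 0.079 for the average of both. Genes are not independent replicates, and the effects share the length of each gene.

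The main effect on the length slope was 0.045 (exact permutation within sarcosine levels, two-sided, adjusted p = 0.685 over 5 library measures). The other measures did not pass either. The mean difference, with memantine minus without, was -1655418 reads (exact permutation adjusted p = 0.248) and -401.5 genes with reads (exact permutation adjusted p = 0.248). The difference in reads was 829925 without and -4140761 with sarcosine. All combination libraries, at 14700861 to 15653093 reads, lay below all sarcosine libraries, at 17008198 to 21844579, so depth and treatment cannot be told apart in that contrast. The mitochondrial share was 4.16 ± 0.405% with memantine, against 4.38 ± 0.623% without (SD, n = 12 each, exact permutation adjusted p = 0.440). The first principal component, which held 45.6% of the variance, differed by -5.27 (exact permutation adjusted p = 0.765).

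**Figure D5:**
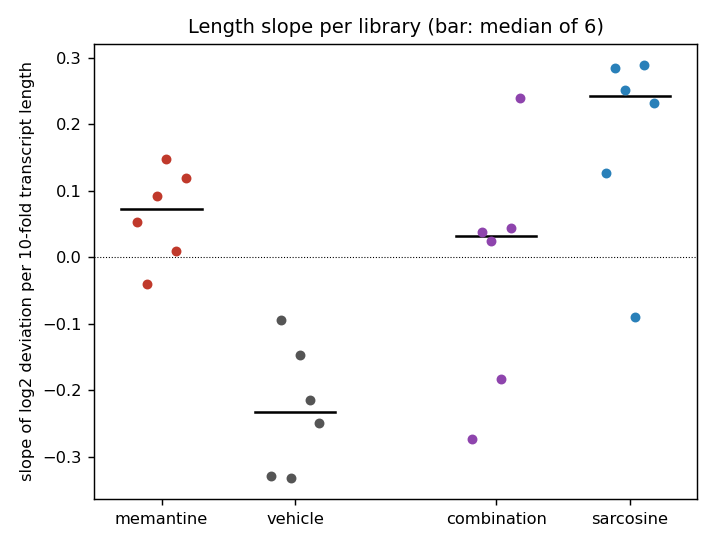
Slope of log2 deviation per 10-fold transcript length in each library (points) with the median of 6 (bar), for memantine left of vehicle and combination left of sarcosine. The means are 0.064 in memantine and -0.23 in vehicle libraries, and -0.018 in combination and 0.18 in sarcosine libraries.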

How the data were processed

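RNA was sequenced in 24 frontal cortex libraries, 4 groups of 6. The authors deposited a single table of normalised signal, with genes in rows and libraries in columns. Per the submitters' processing notes, FastQC, STAR, featureCounts 1.6.0 and DESeq2 1.42.1 were used with mm39; their settings are not given in the sources used here. Per the labels' protocols, libraries were made with a NEBNext Ultra II RNA kit; the strand setting of the counting is not given, so overlapping and antisense genes cannot be told apart. Every deposited signal value was a whole multiple of 1 step per library (100% of values within 0.01 of a whole read), so whole reads were recovered.

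Genes were kept where 6 or more libraries had a value of 10 or more, 16578 of 57180, and fitted on log2(value + 1) with limma 3.58.1 in R 4.3.3 (mean-variance trend, two-sided), memantine and sarcosine as additive terms, called at a Benjamini-Hochberg adjusted p under 0.05. A model of the 4 group means gave the effects at each sarcosine level and the interaction. Fold changes are log2 and understate those of low genes. Library measures were compared by exact permutation within sarcosine level (853776 arrangements, numpy 2.4.6 in Python 3.11.15). The members and lists were chosen with earlier results of these data known, and lists are described without a test.

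With none called, the named genes were the 5 with the smallest p in each direction and the 5 with the smallest interaction p. These have a mean of at least 50 and are not predicted genes. Up to 4 members of each described list with the smallest p and 6 NMDA receptor subunit genes were also named. For those no limit was set on the mean, and Maff (37.8) and Atf3 (33.9) lie below 50. Other members are named as values, chosen after these were seen. The glucocorticoid, endothelial, interferon and other lists were put in the text after their values were seen.

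Transcript length and GC content came from the longest transcript in GENCODE vM21 (16287 genes, 98.2%), whose build differs from mm39; no coordinates were used from it. The trend was removed by loess (span 0.3). Alternatives covered pseudocount, filter, scaling, covariates, library weights, a replicate block, edgeR 4.0.16, DESeq2 1.42.0 and leaving out each library. The code was tested on simulated data. No library was left out, and replicates differed by more than sampling noise (chi-square per degree of freedom 5.94 to 118).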

Additional observations from a re-analysis of the deposited data

Results flagged for a closer look

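Within groups of 6 libraries, 17 of 212 sets of values examined (8.02%) had a highest or lowest library far from the other 5, where chance flags about 1 in 20, or 10.6. Memantine replicate 3 was such a library for Plin4 (906 normalised counts), Acer2 (135) and Map3k6 (162). Sarcosine replicate 6 was one for Plin4 (166) and Map3k6 (197), and combination replicate 4 for Plin4 (595). Combination replicate 3 stood apart for Maff (166) and Tek (141), combination replicate 2 for Klf4 (451), combination replicate 6 for Manf (984) and combination replicate 1 for Rsad2 (114). Memantine replicate 6 stood apart for Hspa1a (246), and memantine replicate 4 for its 12678114 reads. Vehicle replicate 1 stood apart for Skap2 (283) and Bptf (1688), vehicle replicate 5 for Alpk1 (62.7) and sarcosine replicate 4 for Usp9x (1965).

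The memantine effect with sarcosine minus that without it passed the interaction test by limma for 7 named genes. It was -0.48 for Nr1d2, -0.58 for Per3, -0.81 for Fam120c, -0.48 for Bptf, -0.58 for Trip11, -1.08 for Usp9x and -0.70 for Wdfy3. All 7 differences were negative, and none of the 16287 genes with a known length passed this test once the length and GC trend was removed.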

How the results depend on the processing

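The main effect called 0 genes by limma, and also with another pseudocount, filter or scaling, without the covariate or the trend, as an average over the 4 group means, with the length trend removed and by edgeR. It called 2 genes with the replicate block (Mfsd2a and Gjb6), 9 with library weights, 12 by DESeq2 and 9 with region marker scores; the cause was not tested. Leaving out 1 library at a time gave 0 to 1 genes: Mfsd2a without combination replicate 1, B3galt6 without combination replicate 3 and Ciart without combination replicate 6. For memantine against vehicle, 2 genes became 4 with the replicate block and 1 with the length trend removed; combination against sarcosine stayed at 0. The 301 interaction genes became 131 with the replicate block, 256 by edgeR and 0 with the length trend removed. With region marker scores, the counts at an unadjusted p under 0.05 were 5 higher immediate early genes, 8 lower interferon-stimulated and 6 lower MHC class I genes, 3 higher cholesterol genes, 4 lower mural markers, 2 higher AMPA and kainate receptor genes and 2 higher cortical excitatory markers. They were 0 higher autism-associated genes and 1 in each of NMDA receptor, metabotropic receptor, immediate early and astrocyte genes (lower) and interneuron markers (higher). In the same fit there were 15 higher glucocorticoid-responsive, 11 higher clock and 4 higher heat shock and unfolded protein response genes. There were also 6 lower endothelial and 5 lower microglial markers. The share of all genes in this fit is not given here, so these counts are not set against it. Leaving out 1 library at a time, lists with 0 or 1 such members in a direction had at most 2, except for 3 lower mural markers without vehicle replicate 1 and 5 lower nuclear oxidative phosphorylation genes without combination replicate 1. Per3 did not pass against vehicle with only those groups fitted (limma adjusted p = 0.0529), nor in the interaction with the replicate block (0.0674) or by edgeR (0.0621). Same-numbered libraries of different groups correlated at a median of 0.11 (range -0.75 to 0.73), and 18 of 36 pairs lay over 0.1. Differently numbered libraries correlated at a median of -0.016 (range -0.68 to 0.80), and 76 of 180 pairs lay over 0.1. Of 24 libraries, 6 correlated best with their own number. The labels do not say what a number marks, and these values cannot show whether it marks a shared animal, litter or batch. Of the named genes, none with an unadjusted p under 0.05 for the main effect changed its sign under these settings. The 6 libraries per group limit the effects that can be called, and depth for low genes such as Maff or Alpk1 adds counting error. Library measures kept their side of the threshold without sarcosine replicate 1.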

Other observations

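Outside the lists, some genes chosen after their values were seen had effects of the same sign at both sarcosine levels. Etnppl, an astrocyte enzyme that breaks down phosphoethanolamine, had a main effect of 0.73 (0.70 without and 0.76 with sarcosine, limma adjusted p = 0.564). Fam107a, a stress-responsive actin-binding protein, had 0.34 (0.41 and 0.26, limma adjusted p = 0.503). Pcf11, a factor of mRNA 3' end formation, had 0.23 (0.30 and 0.15, limma adjusted p = 0.249). Bambi, a pseudoreceptor of TGF-beta signalling, had 0.61 (0.64 and 0.58, limma adjusted p = 0.528). None of the 4 passed the adjusted test by limma for the main effect or for the interaction (adjusted p from 0.452 for Pcf11 to 0.972 for Etnppl), and DESeq2 called Pcf11 (adjusted p = 0.0132).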
